A study of Homo sapiens with 6 samples.

Results

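The dual-specificity MAP kinase phosphatases (MKPs) were followed as a family of 10 genes, DUSP1, DUSP2, DUSP4, DUSP5, DUSP6, DUSP7, DUSP8, DUSP9, DUSP10 and DUSP16. Members were taken by gene symbol from the 27672 genes of the deposited table, and all 10 were present. RNA-seq libraries of polyadenylated RNA numbered 6. Of these, 3 biological replicates were untreated H9 cells, a human embryonic stem cell (hESC) line, taken at day 0 from cultures that the labels describe as grown on fibronectin and supplied with bFGF (30 ng/ml) and the BMP inhibitor Noggin (10 ng/ml). The other 3 were NMP-like cells (NMP-L, D3), made from H9 cells by 3 days in N2/B27 medium with bFGF (20 ng/ml) and CHIR99021 (3 µM), a GSK3 inhibitor that activates Wnt signalling. The study's methods, unlike the labels, describe another maintenance medium for the hESCs and add Noggin and the TGFβ inhibitor SB431542 shortly before the NMP-L cells were collected. Both conditions therefore contained bFGF, at different doses and in different media, and the labels give Noggin for the hESCs alone. FGF dose, Wnt activation, BMP inhibition, any TGFβ inhibition, medium and time cannot be told apart. All values come from 1 cell line, and no label says whether same-numbered libraries were collected together.

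MAP kinases are switched on by phosphorylation of a threonine and a tyrosine in their activation loop, and MKPs switch them off by removing both phosphates. The family is usually divided into nuclear enzymes induced by growth factors or stress (DUSP1, DUSP2, DUSP4, DUSP5), cytoplasmic enzymes selective for ERK (DUSP6, DUSP7, DUSP9) and enzymes that prefer JNK and p38 (DUSP8, DUSP10, DUSP16). Several are transcribed in response to the pathway that they shut down, and DUSP6 is the best known such feedback gene of FGF signalling in vertebrate embryos. The caudal epiblast, where neuromesodermal progenitors reside, is a classical site of FGF/ERK signalling.

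The libraries held between 19454543 and 23036426 expected counts, the reads that RSEM assigns to each gene, and 3 counts, taken as the detection floor, correspond to 0.130 to 0.154 CPM (counts scaled to library size). The conditions differed in most of the markers that define them. Of 6 NMP markers 5 were higher in NMP-L (D3) cells at an adjusted p under 0.05 (edgeR), and SOX2 was not (log2 fold change 0.06). Of 6 pluripotent cell markers 5 were lower, POU5F1 by 1.89-fold, and LIN28A was not past the threshold (-0.15). Among all genes tested 29.1% were higher and 26.7% lower. T, encoding Brachyury, had 0, 0 and 2 counts in hESC replicates 1 to 3 against 537, 293 and 629 in NMP-L (D3) replicates, while NANOG fell from 1831, 1887 and 1655 counts to 340, 332 and 372. Of 5 endoderm markers 2 were tested and FOXA2 was higher (summed TPM of the 5, 2.06 to 3.42 in hESCs and 14 to 26 in NMP-L (D3) cells), while SOX17 had at most 1 count in any library. Of 5 neural progenitor markers SOX1 alone was tested and was higher (summed TPM 0.550 to 1.33 and 5.43 to 7), while PAX6 had at most 1 count in NMP-L (D3) cells. Of 5 mesoderm markers 3 were tested, with MIXL1 higher and TBX6 lower (summed TPM 7.10 to 9.65 and 11.1 to 12.0). The part of other cell types in the changes below was not tested. In such bulk samples fewer cells that express a gene and less RNA per cell cannot be told apart.

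In edgeR's test the level of every MKP gene differed between hESCs and NMP-L (D3) cells, in both directions, with a weak call for DUSP1. DUSP6 rose by 49.0-fold, DUSP4 by 2.43-fold, DUSP10 by 1.71-fold, DUSP5 by 1.39-fold and DUSP1 by 1.28-fold. DUSP2 was 6.08-fold lower in NMP-L (D3) cells, DUSP9 3.54-fold, DUSP16 1.82-fold, DUSP7 1.61-fold and DUSP8 1.46-fold. Thus 5 of 10 were higher and 5 lower at an adjusted p under 0.05 in edgeR's quasi-likelihood test, against 29.1% and 26.7% of the 15517 genes tested (55.8% in either direction). With a 2-fold minimum added, DUSP6 and DUSP4 remained as the 2 higher members (9.38% of all genes tested) and DUSP2 and DUSP9 as the 2 lower members (9.18%). The CPM ranges of the conditions did not overlap for any of the 10 genes, which was also the case for 61.6% of all genes tested. The median log2 fold change of the family was -0.10 and that of all genes tested 0.028. A two-sided exact permutation test of each member, on log2(CPM + 0.1), returned p = 0.1, which is the lower limit of a design with 3 libraries in each condition. All 10 passed the low-count filter, DUSP2 through its hESC libraries alone. The smaller changes depend on the scaling, and that of DUSP1 also on the test used and on single libraries. Scaling to counts of GAPDH, itself lower in NMP-L (D3) cells (log2 fold change -0.55), left 5 members higher and 3 lower. HPRT1 was itself at a log2 fold change of 0.28 (adjusted p = 0.069 in edgeR), and scaling to it left 2 members higher and 5 lower. Of all genes tested, the GAPDH scaling left 10027 higher and 1428 lower, and the HPRT1 scaling 1793 and 5294.

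**Figure D1:**
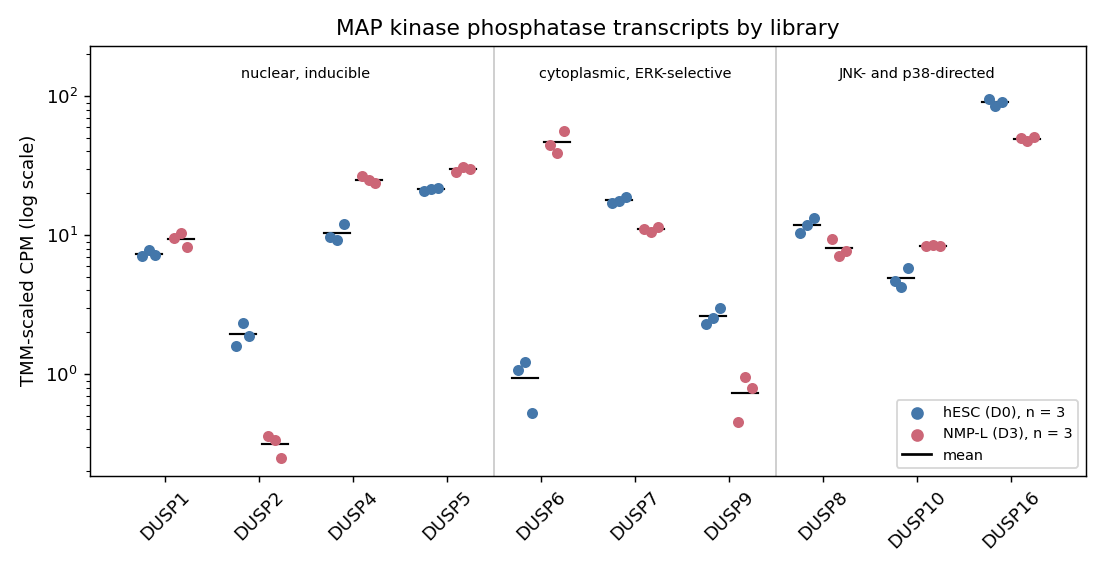
TMM-scaled CPM (log axis) of the 10 MKP genes in the 3 hESC (blue) and 3 NMP-L (D3, red) libraries, ordered by class, with the mean of each condition as a line. DUSP6 lies between 0.522 and 1.23 CPM in hESCs, as against 38.9 to 55.9 CPM in NMP-L (D3) cells, whereas DUSP2 and DUSP9 move the other way.

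DUSP6, the ERK-selective feedback phosphatase, showed by far the largest difference of the family. It is a protein-coding gene on the minus strand of chromosome 12 (89741012 to 89746278, in GRCh37 as are all gene positions here). The other 9 members are also protein-coding. Its counts were 20, 24 and 10 in hESCs but 992, 815 and 1338 in NMP-L (D3) cells. Replicate 3 was the lowest hESC library and replicate 3 the highest NMP-L (D3) library, and the ranges of the conditions were far apart. The mean level rose from 0.942 ± 0.373 to 46.4 ± 8.69 CPM (SD, n = 3 each; log2 fold change 5.62, standard error 0.23, adjusted p = 5.9e-09). It ranked 35 among the 15517 genes tested when these were ordered from the largest rise down. With each library left out in turn the log2 fold change lay between 5.32 and 5.86, and over all alternatives between 4.81 and 6.19. An antisense long noncoding RNA gene overlaps exons of DUSP6 in the annotation and was not analysed here. Whether the counting used strand is not given in the sources used here.

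The other cytoplasmic ERK-selective phosphatases moved in the opposite direction. DUSP9, on chromosome X (152907946 to 152916781), was at 43, 49 and 57 counts in hESCs against 10, 20 and 19 in NMP-L (D3) cells. The level fell from 2.60 ± 0.346 to 0.732 ± 0.258 CPM (log2 fold change -1.82, standard error 0.28, adjusted p = 2.1e-04), with NMP-L (D3) replicate 1 the lowest library. DUSP7, on chromosome 3 (52082935 to 52090587), was at 320, 342 and 358 counts in hESCs against 244, 223 and 274 in NMP-L (D3) cells. Its level was 17.8 ± 0.820 and 11.0 ± 0.412 CPM (log2 fold change -0.69, standard error 0.11, adjusted p = 2.0e-04). The fall of DUSP7 was not past the threshold relative to GAPDH counts (-0.13, adjusted p = 0.38), whereas that of DUSP9 was past it under every alternative tried.

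Among the nuclear phosphatases, 3 rose and 1 fell. DUSP4 (MKP-2), on chromosome 8 (29190581 to 29208201), was at 183, 178 and 229 counts in hESCs against 590, 526 and 564 in NMP-L (D3) cells. Every NMP-L (D3) library exceeded every hESC library by over 2-fold in counts, and the level went from 10.3 ± 1.47 to 25.0 ± 1.46 CPM (log2 fold change 1.28, standard error 0.12, adjusted p = 5.3e-06). DUSP5, an ERK-specific phosphatase, on chromosome 10 (112257665 to 112271291), was at 390, 418 and 417 counts in hESCs against 636, 644 and 719 in NMP-L (D3) cells. The difference, 21.4 ± 0.487 against 29.8 ± 1.10 CPM (log2 fold change 0.48, standard error 0.09, adjusted p = 0.0011), was small but larger than the spread between libraries. Relative to HPRT1 counts it was not past the threshold (0.17, adjusted p = 0.51).

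DUSP1 (MKP-1), the founding member and an immediate early gene, lies on chromosome 5 (172195099 to 172198198). It had 132, 152 and 137 counts in hESCs and 214, 217 and 196 in NMP-L (D3) cells. Its level was 7.34 ± 0.418 and 9.38 ± 1.10 CPM (log2 fold change 0.35, standard error 0.13, adjusted p = 0.039). This was the weakest call of the family. It was lost in 9 of 17 alternatives, among them DESeq2 (adjusted p = 0.10), the replicate block (0.074) and the fits without hESC replicate 1 (0.11), hESC replicate 3 (0.13), NMP-L (D3) replicate 1 (0.089) or NMP-L (D3) replicate 2 (0.13), with the direction kept. DUSP2 (PAC-1), first described in activated lymphocytes, lies on chromosome 2 (96808908 to 96811179). It had 30, 45 and 36 counts in hESCs and only 8, 7 and 6 in NMP-L (D3) cells, close to the detection floor. The level fell from 1.93 ± 0.359 to 0.315 ± 0.0567 CPM (log2 fold change -2.60, standard error 0.31, adjusted p = 2.6e-05).

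The phosphatases directed at JNK and p38 also divided. DUSP16 (MKP-7), on chromosome 12 (12626216 to 12715797), was the most abundant MKP transcript of hESCs, with 1776, 1661 and 1739 counts, and had 1122, 1003 and 1207 in NMP-L (D3) cells. It fell from 90.4 ± 4.71 to 49.6 ± 1.49 CPM (log2 fold change -0.87, standard error 0.08, adjusted p = 4.4e-06). DUSP8, on chromosome 11 (1575281 to 1593501), was at 194, 232 and 253 counts in hESCs against 210, 149 and 185 in NMP-L (D3) cells. The raw counts of the conditions overlap and the CPM values do not, at 11.8 ± 1.43 and 8.09 ± 1.2 CPM (log2 fold change -0.55, standard error 0.14, adjusted p = 0.0068), and relative to GAPDH counts the sign turned (0.01, adjusted p = 0.95). DUSP10 (MKP-5), on chromosome 1 (221874766 to 221915431), rose, with 87, 83 and 111 counts in hESCs and 187, 178 and 199 in NMP-L (D3) cells. Its level was 4.90 ± 0.795 and 8.40 ± 0.0853 CPM (log2 fold change 0.78, standard error 0.14, adjusted p = 7.6e-04). Relative to HPRT1 counts the rise of DUSP10 was not past the threshold (0.47, adjusted p = 0.10).

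**Figure D2:**
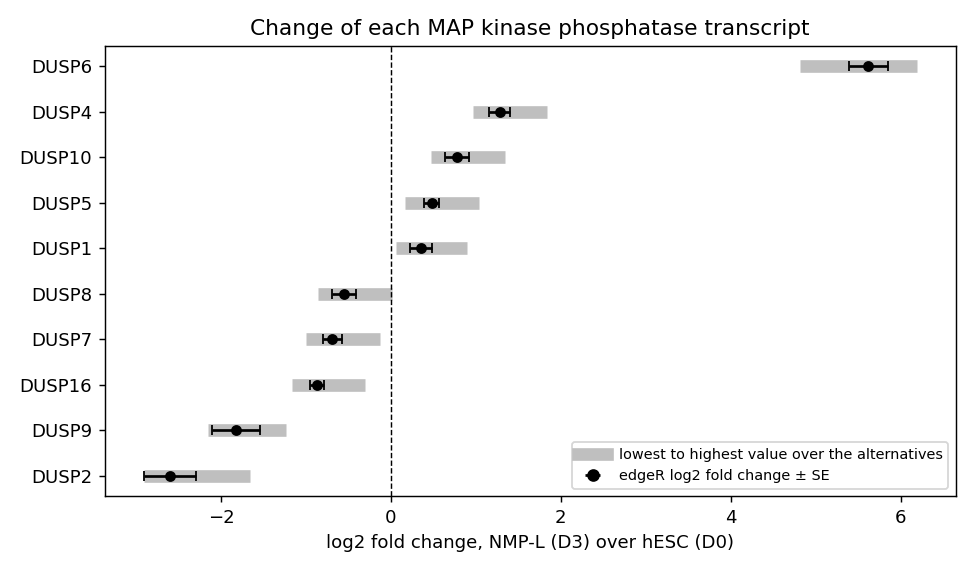
Log2 fold change (NMP-L (D3) over hESC) of each MKP gene with its standard error (points and bars) and, in grey, the lowest and highest value over the 17 alternatives. DUSP6, at 5.62, stands apart from the other 9 genes, which lie between -2.60 and 1.28, and the grey bar of DUSP8 reaches 0.01.

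To show the sequence next to which these genes start, promoter windows were taken from RefSeq (GRCh38.p14, 250 bases before to 50 after the start), which gave 10 windows for 8 members, with 2 each for DUSP9 and DUSP10. DUSP4 and DUSP5 had none. Both strands were searched for TGACGTC (a cAMP response element, CRE, without its last base), CCGGAAG (an ETS site), TGANTCA (an AP-1 site) and CTTTGAT (a TCF/LEF site). CRE letters were found in 2 of the 10 windows, those of DUSP1 and DUSP8, against 3.45% of all 35116 windows. The exact letters of the other motifs were in none of the 10, against 10.3% (ETS), 7.71% (AP-1) and 2.62% (TCF/LEF) of all windows. Other forms of these sites were not searched for, and with so few windows an absence says little. The 250 bases before the start are shown for DUSP6, the gene with the largest change, and for the pair with CRE letters, all on the minus strand and each found once in GRCh37, at chr12:89746279-89746528 (DUSP6), chr5:172198199-172198448 (DUSP1) and chr11:1593502-1593751 (DUSP8). Capitals mark the CRE letters, with overlapping matches of both strands joined.
DUSP6: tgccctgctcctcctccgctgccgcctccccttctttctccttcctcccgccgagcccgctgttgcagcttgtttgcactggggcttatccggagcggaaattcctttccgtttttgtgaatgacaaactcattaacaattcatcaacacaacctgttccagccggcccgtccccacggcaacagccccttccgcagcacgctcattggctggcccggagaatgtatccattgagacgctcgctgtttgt
DUSP1: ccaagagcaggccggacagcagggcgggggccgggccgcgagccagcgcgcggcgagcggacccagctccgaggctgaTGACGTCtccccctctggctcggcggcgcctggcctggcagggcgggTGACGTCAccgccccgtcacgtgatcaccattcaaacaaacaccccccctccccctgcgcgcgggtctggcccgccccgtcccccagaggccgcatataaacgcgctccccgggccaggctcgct
DUSP8: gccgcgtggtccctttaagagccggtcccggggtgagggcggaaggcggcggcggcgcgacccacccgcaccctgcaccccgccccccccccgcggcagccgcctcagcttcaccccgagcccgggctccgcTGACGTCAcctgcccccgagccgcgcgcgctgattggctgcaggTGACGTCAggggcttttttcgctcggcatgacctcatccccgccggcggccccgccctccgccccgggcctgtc
Relative to the start, the CRE letters begin at positions -172 and -125 in DUSP1 and at -118 and -74 in DUSP8. The former gene was slightly higher and the latter slightly lower in NMP-L (D3) cells. GC content was 57.2% in the DUSP6 stretch, 74.4% in that of DUSP1 and 76.8% in that of DUSP8.

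Levels of different genes were compared in TPM, which is scaled to transcript length. The summed TPM of the 10 genes was 83.4, 80.5 and 86.5 in hESCs, below the 109, 106 and 122 of the NMP-L (D3) libraries. In hESCs the order was DUSP16 (26.8 to 30.9 TPM), DUSP5 (17.2 to 17.9), DUSP7 (10.9 to 11.9), DUSP1 (7.40 to 7.90), DUSP8 (4.79 to 6.03), DUSP10 (3.52 to 4.48), DUSP4 (3.21 to 4.32), DUSP2 (2.04 to 2.84), DUSP9 (2.03 to 2.57) and DUSP6 (0.360 to 0.730). The ranges of DUSP10 and DUSP4 overlapped, as did those of DUSP2 and DUSP9. In NMP-L (D3) cells DUSP6, the lowest member in hESCs, came first (24.5 to 37.5 TPM), although its range overlapped that of DUSP5 (24.5 to 27.4). DUSP16 followed (16.0 to 18.0), then DUSP1 (9.41 to 11.2), DUSP4 (9.44 to 10.0), DUSP7 (7.06 to 8.09), DUSP10 (6.78 to 7.13), DUSP8 (3.38 to 4.49), DUSP9 (0.410 to 0.850) and DUSP2 (0.350 to 0.470). Here the ranges of DUSP1 and DUSP4, of DUSP7 and DUSP10 and of DUSP9 and DUSP2 overlapped.

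As a share of the summed TPM, DUSP6 went from 0.792%, 0.907% and 0.416% in hESCs to 25.7%, 23.1% and 30.8% in NMP-L (D3) cells. DUSP16 went from 37%, 33.2% and 33.7% to 15.4%, 15.1% and 14.7%. The JNK- and p38-directed genes together held 45.7 ± 1.48% of the summed TPM in hESCs and 24.8 ± 0.985% in NMP-L (D3) cells, and the cytoplasmic ERK-selective genes 16.9 ± 0.386% and 33.8 ± 3.82% (SD, n = 3 each). Within the ERK-selective class only DUSP6 gained share. The mean share of DUSP7 went from 13.5% to 6.65% and that of DUSP9 from 2.67% to 0.602%. The nuclear genes held 37.4 ± 1.21% and 41.4 ± 3.24%. These shares are free of any scaling between libraries. DUSP5 alone held 21.0 ± 0.382% in hESCs and 23.2 ± 1.37% in NMP-L (D3) cells. A larger share of one gene lowers those of the others, so shares are not changes in level.

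**Figure D3:**
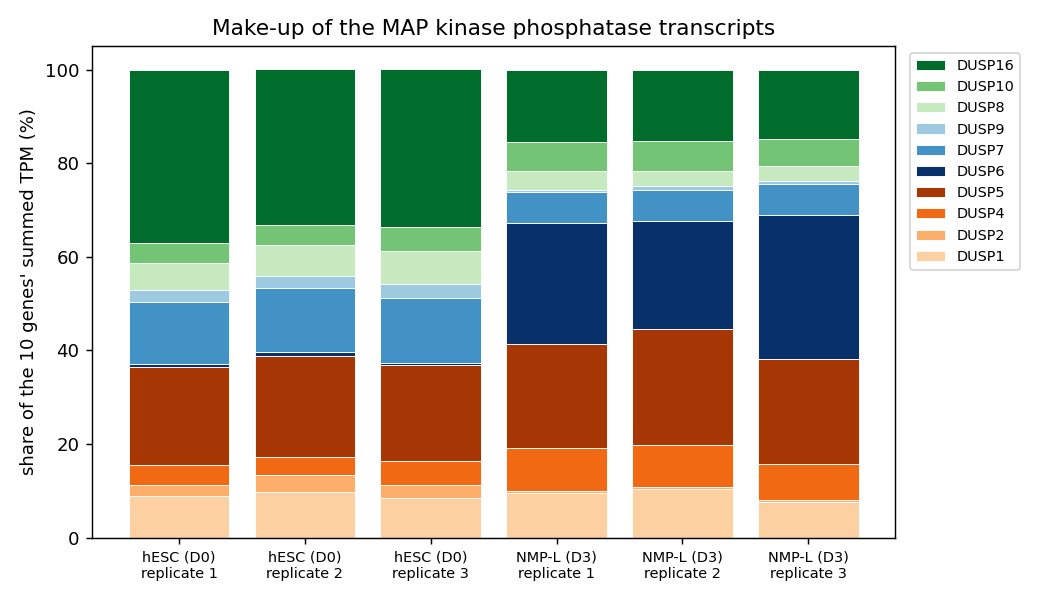
Share of each MKP gene in the summed TPM of the 10 genes (percent, stacked to 100) in each of the 3 hESC and 3 NMP-L (D3) libraries, with nuclear genes in orange, ERK-selective genes in blue and JNK- and p38-directed genes in green. DUSP6 (dark blue) is barely visible in hESCs, at under 1%, and holds 23.1% to 30.8% in NMP-L (D3) cells.

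Ratios of genes within a library, which also need no scaling between libraries, were computed for pairs chosen after their values were seen and are given as a description. DUSP6 over DUSP9 in TPM was 0.325, 0.348 and 0.140 in hESCs and 68.7, 28.9 and 48.8 in NMP-L (D3) cells. DUSP4 over DUSP2 was 1.75, 1.13 and 1.83 in hESCs and 21.3, 21.5 and 27.0 in NMP-L (D3) cells. For the JNK- and p38-directed pair DUSP10 over DUSP16 the ratio was 0.118, 0.132 and 0.154 in hESCs and 0.401, 0.427 and 0.397 in NMP-L (D3) cells. The ranges of the conditions are apart in all 3 of these ratios. DUSP16 over DUSP8 was 6.44, 5.04 and 4.84 in hESCs and 3.76, 4.74 and 4.6 in NMP-L (D3) cells, with ranges that do not overlap but lie close. DUSP5 over DUSP1 was 2.34, 2.18 and 2.41 in hESCs and 2.36, 2.35 and 2.91 in NMP-L (D3) cells, with overlapping ranges.

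Of 13 genes for MAP kinases, which include the substrates of the MKPs, 2 were higher, 2 lower and 9 not past the threshold, against 55.8% of all genes tested that differed. The median log2 fold change was -0.03. The number higher was 10 when scaled to GAPDH, with 1 lower, 4 with library size only or in TPM, and 1 without hESC replicate 3 or NMP-L (D3) replicate 3. The GAPDH scaling left 10027 of all genes tested higher and 1428 lower. MAPK3, encoding ERK1, was not past the threshold (log2 fold change 0.18, standard error 0.10, adjusted p = 0.14), and was at -0.13 when scaled to HPRT1. The calls were MAPK4 (1.66), an atypical MAP kinase, and MAPK10 (0.58), encoding JNK3, which were higher, and MAPK11 (-1.30) and MAPK12 (-0.54), encoding p38 kinases, which were lower. MAPK10 lost its call without hESC replicate 3 (adjusted p = 0.071), without NMP-L (D3) replicate 3 (0.064) and when scaled to HPRT1 (0.38). The fall of MAPK12 vanished relative to GAPDH counts (0.02, adjusted p = 0.90). Of 7 MAP kinase kinase genes, MAP2K5 (0.57), MAP2K6 (0.48) and MAP2K4 (0.25) were higher and MAP2K7 (-0.37) lower, but scaling to GAPDH gave 6 higher and 0 lower, and scaling to HPRT1 0 higher and 3 lower. The HPRT1 scaling left 1793 of all genes tested higher and 5294 lower. Without hESC replicate 1, 3 MAP kinase kinase genes were lower. The call of MAP2K4 held in 8 of 17 alternatives and was lost with DESeq2 (adjusted p = 0.058), with the replicate block (0.11) and without any 1 library other than hESC replicate 1 (0.055 to 0.14). Of 6 other phosphatase genes that act on MAP kinases, 4 were tested and PPM1B alone differed (-0.93, standard error 0.09, adjusted p = 4.4e-06).

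Other genes that respond to ERK signalling moved in both directions. Of 16 such genes, 3 were higher, 6 lower and 7 not past the threshold, a share of calls near the 55.8% of all genes tested, and the median log2 fold change was -0.24. Scaled to GAPDH, 8 were higher and 6 lower, beside 10027 and 1428 of all genes tested. PHLDA1 (1.34), SPRED2 (0.87), an inhibitor of RAS-ERK signalling, and ETV4 (0.23), an ETS factor of the PEA3 group, were higher. The call of ETV4 held in 10 of 17 alternatives. It was lost with upper-quartile scaling (adjusted p = 0.052), with the replicate block (0.092) and without hESC replicate 1 or 3 or NMP-L (D3) replicate 1 or 2 (0.061 to 0.10), and the value was -0.07 when scaled to HPRT1. ETV5 (-1.59), another PEA3 factor, SPRY4 (-1.45), a Sprouty feedback inhibitor, and EGR1 (-1.39), an immediate early factor, were lower, as they were under every alternative tried. SPRY4 had 2719, 2894 and 2918 counts in hESCs and 1128, 1161 and 1370 in NMP-L (D3) cells, against the 20, 24 and 10 and the 992, 815 and 1338 of DUSP6. Among the other phosphatases, DUSP1, DUSP4, DUSP5 and DUSP10 were higher and DUSP2, DUSP7, DUSP8, DUSP9 and DUSP16 lower. A common direction is no likeness in size, and a relation of these genes to DUSP6 or SPRY4 was not tested.

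Of 15 atypical DUSP genes, which lack the kinase-binding domain of the MKPs, 13 were tested, 3 of them higher, 2 lower and 8 not past the threshold, with a median log2 fold change of 0.01. DUSP15 had 26, 30 and 28 counts in hESCs and 834, 765 and 783 in NMP-L (D3) cells (log2 fold change 4.59, standard error 0.14, adjusted p = 1.1e-09), and was thus the only other DUSP gene tested with a change near that of DUSP6. DUSP12 (0.94) and DUSP14 (0.35) were higher and DUSP23 (-0.51) and DUSP22 (-0.34) lower. The number lower was 1 without hESC replicate 3 or NMP-L (D3) replicate 2. DUSP14 lost its call without NMP-L (D3) replicate 2 (adjusted p = 0.056), with the replicate block (0.054) and when scaled to HPRT1 (0.85), and DUSP23 without hESC replicate 3 (0.072) or NMP-L (D3) replicate 3 (0.073). Scaled to GAPDH, DUSP23 (0.04) and DUSP22 (0.22) changed sign, and in TPM DUSP22 had a log2 fold change of 0.13. The share of called genes, 5 of the 13 tested, is to be read against 55.8% of all genes tested.

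**Figure D4:**
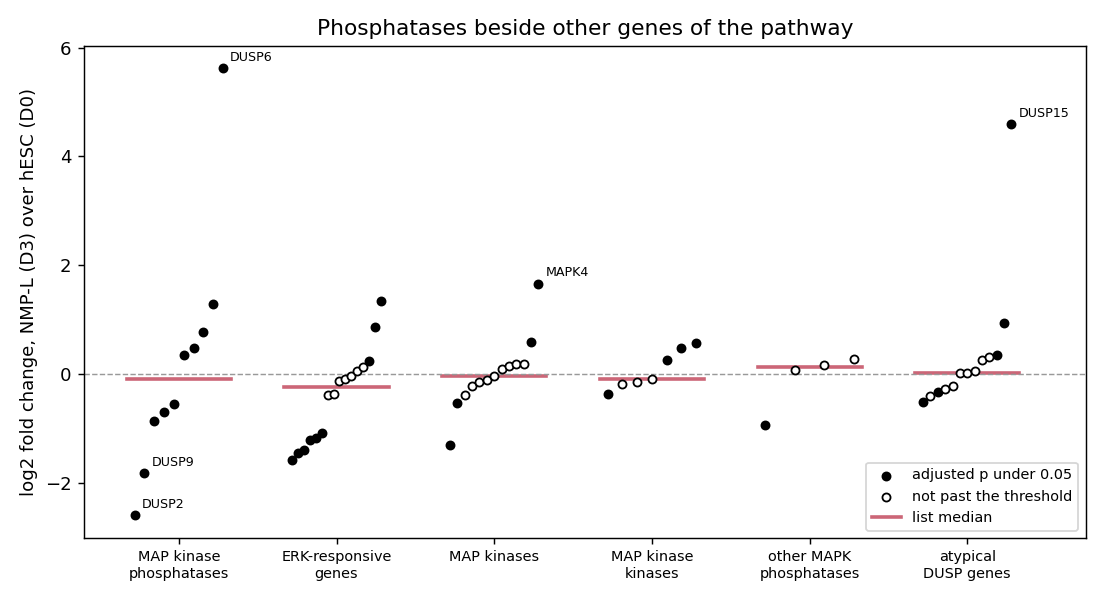
Log2 fold change (NMP-L (D3) over hESC) of each tested gene of the MKP family and of 5 other lists, with filled points for an adjusted p under 0.05, open points for the rest and a red line at each list's median. DUSP6 (5.62) and DUSP15 (4.59) lie above all other genes shown, and the list medians lie between -0.24 and 0.12.

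The genes whose pattern over the 6 libraries was most like that of DUSP6 were found by the root mean square difference of log2 CPM, each gene centred on its own mean. They were FZD10 (0.197), WLS (0.201), UNC93A (0.324), GABRB2 (0.332) and CUZD1 (0.337). FZD10 had 10, 11 and 6 counts in hESCs and 527, 415 and 558 in NMP-L (D3) cells, and WLS 39, 40 and 23 and then 2321, 1888 and 2327. In both, as in DUSP6, replicate 3 had the fewest counts of the hESC libraries and replicate 2 the fewest of the NMP-L (D3) libraries. The counts of UNC93A were lowest in the same libraries. NMP-L (D3) replicate 2, the library of that condition with the smallest total (20687062 expected counts), was also lowest for T, FOXA2 and SOX1, but not for TBX6. This was so in counts and in CPM, and any link of these markers to DUSP6 was not tested. FZD10, WLS and UNC93A were picked for likeness to DUSP6 over these same libraries, so sharing its lowest libraries is no separate result. Likeness over 6 libraries in 2 conditions mostly reflects the size of the difference between the conditions.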

How the data were processed

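Polyadenylated RNA of 3 hESC and 3 NMP-L (D3) libraries was read from one end for 76 bp. Per gene, the authors deposited expected counts from RSEM, unscaled, and TPM, scaled to transcript length and library. P-values measure only the spread between these libraries. The submitters' processing notes list cutadapt 1.9.1, STAR 2.5.2a, RSEM 1.3.0, DESeq2 1.12.3 and hg19, and the annotation and strand setting are not given in the sources used here. The totals of 19454543 to 23036426 counts set the precision. Counts were rounded and analysed with edgeR 4.0.16 in R 4.3.3: filterByExpr (minimum count 10), TMM, glmQLFit and glmQLFTest for condition over 15517 genes, Benjamini-Hochberg adjustment and a threshold of 0.05. The standard error is the log2 fold change over the square root of F. CPM values use TMM-scaled library sizes. Permutation tests are exact and two-sided. Alternatives were other scalings (RLE, upper quartile, library size, GAPDH, HPRT1), DESeq2 1.42.0, other filters, limma 3.58.1 on log2 TPM (pseudocounts 0.5 and 0.1), replicate block and each library left out. The scripts were tested on simulated data. Positions come from GENCODE on GRCh37, promoters from RefSeq. The genes named are the members, up to 3 called genes with the largest change per list and direction, MAPK3, GAPDH, HPRT1, markers and the 5 genes most like DUSP6. Members and lists were chosen with earlier results of these data known. A gene of the lists was left out and is not reported here. FOXA2, SOX17, SOX1, PAX6, MIXL1, TBX6, T, SOX2, NANOG, POU5F1 and LIN28A are named as markers.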

Additional observations from a re-analysis of the deposited data

How the results depend on the processing

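Of 169 values of the 10 MKP genes over 17 alternatives, 156 had the same direction and call and 12 lost the call, 9 of these for DUSP1. DUSP2 could not be tested with at least 10 counts in every library. DUSP8 changed sign relative to GAPDH counts (0.01). The scalings to GAPDH and HPRT1 moved the median log2 fold change of all genes by 0.56 and -0.30. Relative to GAPDH, 3 MKP genes were lower, 8 ERK-responsive genes higher, 10 MAP kinases higher and 1 lower, 6 MAP kinase kinases higher and 0 lower, 3 other phosphatases higher, and 7 atypical DUSP genes higher and 0 lower, beside 10027 of all genes higher and 1428 lower (3706 and 697 by at least 2-fold). There MAPK12 (0.02), MAP2K7 (0.19), DUSP23 (0.04) and DUSP22 (0.22) changed sign. Relative to HPRT1, 2 MKP genes, 1 MAP kinase, 0 MAP kinase kinases and 1793 of all genes were higher, with 3 MAP kinase kinases lower and 2188 genes lower by at least 2-fold, and ETV4 (-0.07), MAP2K4 (-0.04) and MAPK3 (-0.13) changed sign. With library size only, and with either TPM pseudocount, 4 MAP kinases and 1 other phosphatase were higher, and with no filter 1 other phosphatase. In TPM 1 atypical DUSP gene was lower, DUSP22 changed sign (0.13 with both pseudocounts), and with a pseudocount of 0.5 912 genes were lower by at least 2-fold. With a library left out, between 1 and 3 MAP kinases were higher (1 without hESC replicate 3 or NMP-L (D3) replicate 3), between 1 and 3 MAP kinase kinases lower (3 without hESC replicate 1) and between 1 and 2 atypical DUSP genes lower (1 without hESC replicate 3 or NMP-L (D3) replicate 2). Except where the filter or fewer libraries changed what was tested, the cause was not tested.

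Same-numbered libraries did not deviate together (correlations of -0.37, -0.06 and -0.13). With the replicate block 7560 genes differed in place of 8653, and of the MKP genes 4 were higher and 5 lower, DUSP1 losing its call. The depth leaves DUSP2 in NMP-L (D3) cells, and DUSP6 and DUSP9 where they were low, with few counts, so that the size of their changes is less certain than its direction.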
